A study of Mus musculus with 2 samples.

Results

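The 4 microRNA genes Mir22, Mir21a, Mir31 and Mir193a are discussed together here as miRNAs associated with glial cells. They were picked by symbol from the GENCODE M21 annotation, out of 2202 miRNA genes counted in each library. The choice was made with earlier results of these data known. The tissue was hippocampus of female B6CASTF1/J mice, an F1 hybrid between C57BL/6J and CAST/EiJ, 36 days old and from The Jackson Laboratory. Small RNA (inserts under 30 nucleotides) was sequenced from total RNA of 2 samples, which the labels number as biological replicates 1 and 2 and which form 1 group with no treatment. Both carry the same donor entry and different biosample entries, so the spread between them may be partly technical. Values are reads of a gene per 1000000 sense reads on miRNA genes (CPM).

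A miRNA is cut from a hairpin transcript into a 5p and a 3p arm, and the arm loaded into an Argonaute protein pairs with messenger RNAs mainly through its seed, bases 2 to 8, and lowers their output. miR-21 is known for its rise in reactive astrocytes and other injured or inflamed tissue. miR-22 is broadly expressed and best studied in heart muscle. miR-31 is best known from epithelia and muscle stem cells, and miR-193a is the paralog of miR-193b, both encoded close to a miR-365 gene. Glial association is background knowledge here: whole-tissue libraries do not resolve cells, and fewer cells of a type and less RNA per cell cannot be told apart.

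The mature arms are shown because the seeds decide which of these genes belong to a family. The sequences are those of RefSeq (GRCm38.p6), which had entries for all 4 genes, and capitals mark the seed.
miR-22-3p: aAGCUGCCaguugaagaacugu
miR-22-5p: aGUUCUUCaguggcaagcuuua
miR-21a-5p: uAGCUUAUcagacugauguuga
miR-21a-3p: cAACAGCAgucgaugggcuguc
miR-31-5p: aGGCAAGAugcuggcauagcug
miR-31-3p: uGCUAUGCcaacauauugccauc
miR-193a-3p: aACUGGCCuacaaagucccagu
miR-193a-5p: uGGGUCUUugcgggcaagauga

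No seed was shared among the 4 genes, so they form no seed family. Of 1022 miRNA genes with a RefSeq arm, 1 other gene carried the seed of miR-193a-3p (Mir193b), and 1 other carried that of miR-21a-5p (Mir21c). The other 6 arms had seeds found in no other gene. No stretch of 20 bases of the 4 hairpins occurred in another annotated hairpin. Counts are per hairpin, so reads of the 5p and 3p arm of a gene were not told apart.

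Mir22 (ENSMUSG00000065529.1) sits on the plus strand of chromosome 11 between 75463716 and 75463810 (mm10), in an exon of both transcripts of its noncoding host gene Mir22hg and in an exon of 1 noncoding transcript of Tlcd2. Mir21a (ENSMUSG00000065455.1) sits on the minus strand of chromosome 11 between 86584067 and 86584158, in an exon of 1 of 8 transcripts of Vmp1, a gene of autophagy, downstream of all its coding sequence and thus in the 3′ UTR. Mir31 (ENSMUSG00000065408.1) sits on the minus strand of chromosome 4 between 88910557 and 88910662, in an exon of the long noncoding RNA AL805899.1. Mir193a (ENSMUSG00000065395.1) sits on the plus strand of chromosome 11 between 79711969 and 79712034 and overlaps no other annotated gene. Mir193a was also alone among the 4 in having another miRNA gene within 50000 bases, Mir365-2 at a distance of 14366 bases.

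All 4 genes were detected, that is with at least 10 reads in each library, which 17.1% of all miRNA genes reached. Mir22 was the highest of the 4, Mir21a below it, Mir31 next and Mir193a lowest, in both libraries. Together they held 6712 CPM in replicate 1 and 3617 CPM in replicate 2, or 0.671% and 0.362% of the reads on miRNA genes. Mir22 supplied 72.0% of their joint reads in replicate 1 and 73.1% in replicate 2. No antisense read fell on any of the 4 in either library, and the counts without strand equalled the sense counts.

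Mir22 had 14149 reads in replicate 1 and 9638 in replicate 2. Its level was 4832 CPM in replicate 1 (95% interval 4753 to 4912, by the exact Clopper-Pearson method) and 2645 CPM in replicate 2 (2592 to 2698), a mean of 3738 ± 1547 CPM (SD, n = 2). This placed Mir22 at rank 38 of 2202 genes in replicate 1 and rank 55 in replicate 2. The 2 intervals lie far apart, so the libraries differed by more than counting error. All intervals cover the counting error of reads only. Reads were not collapsed to molecules, and the intervals do not allow for copies of 1 molecule.

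Mir21a had 3046 reads in replicate 1 and 3179 in replicate 2, and was the steadiest of the 4. Its level was 1040.2 CPM in replicate 1 (1004 to 1078) and 872 CPM in replicate 2 (842 to 903), with a mean of 956 ± 119 CPM (SD, n = 2). It held rank 89 in replicate 1 and rank 102 in replicate 2.

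Mir31 had 2346 reads in replicate 1 and 301 in replicate 2. Its level was 801 CPM in replicate 1 (769 to 834) and 82.6 CPM in replicate 2 (73.5 to 92.5). The SD exceeded the mean, at 442 ± 508 CPM (n = 2), so the 2 libraries give no common level for Mir31. Its rank was 108 in replicate 1 and 211 in replicate 2.

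Mir193a had 113 reads in replicate 1 and 63 in replicate 2, the lowest depth of the 4. Its level was 38.6 CPM in replicate 1 (31.8 to 46.4) and 17.3 CPM in replicate 2 (13.3 to 22.1), with a mean of 27.9 ± 15.1 CPM (SD, n = 2). It held rank 242 in replicate 1 and rank 282 in replicate 2.

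**Figure D1:**
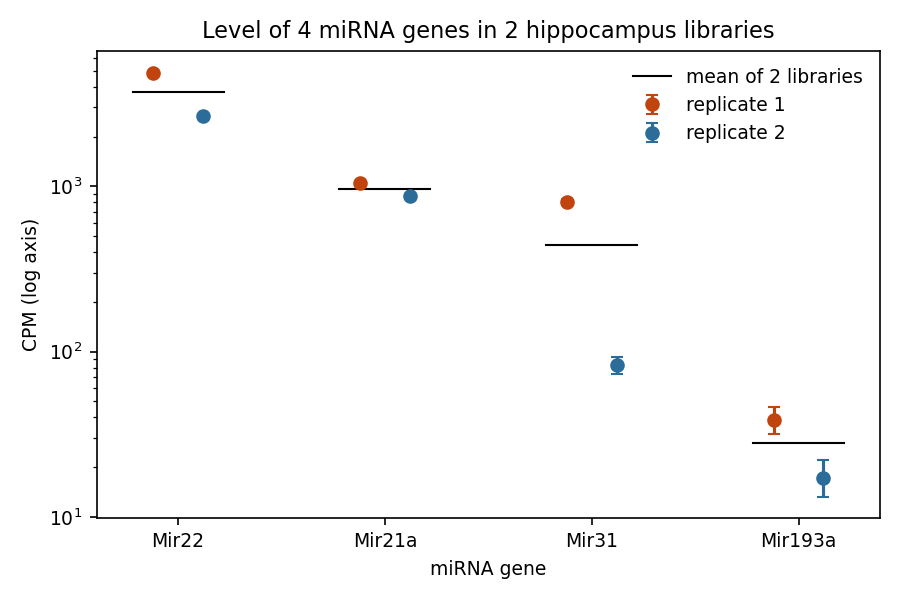
Level of each gene in CPM on a log axis, with 1 point per library, the exact 95% counting interval as bars (smaller than the point for most) and a black line at the mean of the 2 libraries. The order of the genes is the same in both libraries, and the points of Mir31 stand farthest apart, at 801 and 82.6 CPM.

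The order of neighbours held in both libraries, but its margins did not. Mir22 had 4.65 times the reads of Mir21a in replicate 1 and 3.03 times in replicate 2, and their means differed by 2782 CPM, more than the SD of either gene. Mir21a had 1.30 times the reads of Mir31 in replicate 1 and 10.6 times in replicate 2, and the difference of their means, 514 CPM, was about the SD of Mir31. Mir31 had 20.8 times the reads of Mir193a in replicate 1 and 4.78 times in replicate 2, with a difference of means of 414 CPM, which was less than the SD of Mir31. The annotated arms of the 4 genes have 22 or 23 bases, so read numbers were compared without dividing by length. Reads were not calibrated to molecules in the tissue, so the order and margins are those of reads.

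All 4 genes were higher in replicate 1. Mir31 was 9.70-fold higher in replicate 1 (exact 95% interval 8.60 to 10.97), Mir193a 2.23-fold (1.63 to 3.09), Mir22 1.83-fold (1.78 to 1.88) and Mir21a 1.19-fold (1.13 to 1.25). The split of each gene's reads between the libraries was tested with the two-sided exact binomial test, adjusted by Benjamini-Hochberg over all 474 genes of at least 10 summed reads, and 4 of 4 were called, all higher in replicate 1. Of all tested genes, 58.0% were called in either direction, 26.4% upward in replicate 1 and 31.6% upward in replicate 2. Deeper genes were called more often: tested alone, the 258 averaging 100 or more reads had 214 calls, 100 upward in replicate 1 and 114 upward in replicate 2. Mir22, Mir21a and Mir31 reach that depth and Mir193a does not, so being called sets the 3 little apart from genes of like depth. The adjusted p of this exact test was 1.7e-11 for Mir21a and 5.6e-07 for Mir193a, and for Mir22 and Mir31 it was below the smallest number the software holds. The test sets 1 library against the other, not conditions, and allows for no noise beyond counting error. With all reads of the count table as the total, Mir21a was 1.05-fold higher and no longer called (adjusted p = 0.11, same exact test).

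Set against the spread of other genes, Mir31 stood out and Mir21a did not. Over the 295 genes that averaged 50 or more reads, log2 ratios (replicate 1 over replicate 2) had an SD of 0.86 and a median of -0.03, and 86.8% of genes lay within 2-fold. The log2 ratio of Mir31 was 3.28, the highest of the 295 and the fourth largest in size in either direction. Mir193a, at a log2 ratio of 1.16, was number 32 by size and number 11 among the ratios toward replicate 1. Mir22, at 0.87, was number 51 by size, and Mir21a, at 0.25, was number 183. The common biological coefficient of variation between the libraries, estimated with edgeR over 399 genes, was 0.382.

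**Figure D2:**
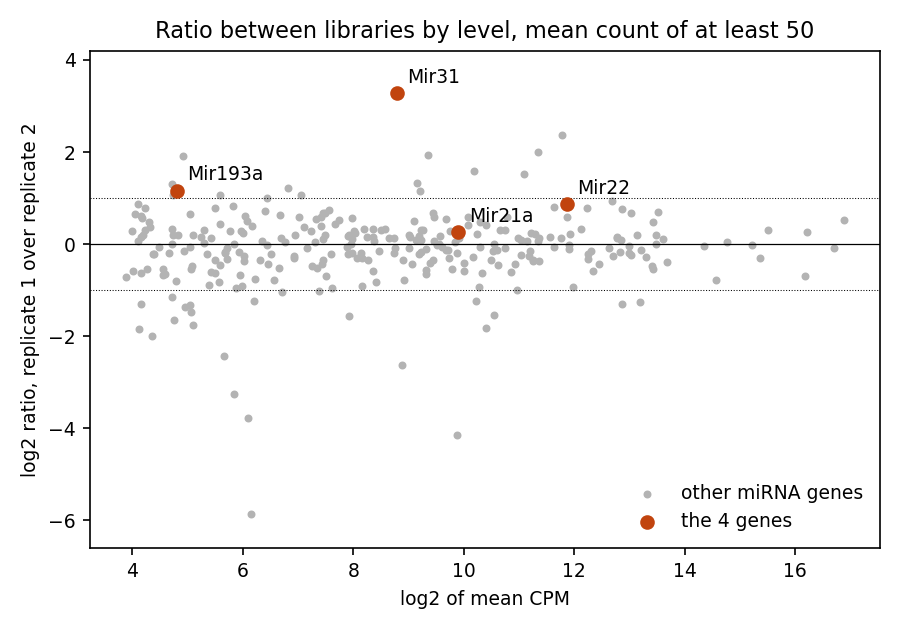
Log2 ratio of replicate 1 over replicate 2 against log2 of mean CPM for the 295 miRNA genes averaging 50 or more reads, the 4 genes in orange, and dotted lines at 2-fold. Mir31 is the highest point at 3.28, Mir193a is just above the upper 2-fold line and Mir22 just below it, and Mir21a lies among the bulk of genes.

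Several library properties also differed between the 2 libraries. Their part in the ratios was not tested, and 2 libraries cannot tell it apart. Unplaced reads made up 26.8% of the count table in replicate 1 and 14.7% in replicate 2, and reads with several places 38.9% and 45.8%. Sense reads on miRNA genes numbered 2928141 in replicate 1 and 3644157 in replicate 2, so replicate 1, where the 4 genes were higher, was the shallower library.

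Of the 5 family and cluster partners, 1 was detected and 0 were called in either direction, and 2 had enough reads to be tested. Mir193b, which shares its 3p seed with Mir193a, had 95 reads in replicate 1 and 123 in replicate 2, or 32.4 CPM and 33.8 CPM. Its ratio of replicate 1 to replicate 2 was 0.96 (0.73 to 1.27) and was not called, with an adjusted p of 0.84 by the exact test. The interval of Mir193a, 1.63 to 3.09, does not overlap that of Mir193b, but both cover counting error only. Log2 ratios of the 295 genes averaging 50 or more reads had an SD of 0.86. Whether the paralogs differ beyond that spread was not tested. In replicate 1 the counting interval of Mir193a overlapped that of Mir193b (26.2 to 39.7 CPM), and in replicate 2 Mir193a lay below it (28.1 to 40.3 CPM). The 3p arms of the 2 genes are shown to let the difference outside the seed be seen.
miR-193a-3p: aACUGGCCuacaaagucccagu
miR-193b-3p: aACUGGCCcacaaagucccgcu

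Counted from 1 at the 5′ end, and with the base of miR-193a-3p first, they differ by U9C, A20G and G21C over 22 bases. The 5p arms differ by 5 substitutions, U1C, U5G, C6U, C11A and A16G, of which U5G and C6U lie in the seed. Neither gene had an arm that also occurs in another annotated hairpin.

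The miR-365 genes that lie near the paralogs were nearly empty. Mir365-2, the neighbour of Mir193a, had 1 read in replicate 1 and 9 in replicate 2 and was not called (adjusted p = 0.083, exact test). Mir365-1 had 5 reads in replicate 1 and 1 in replicate 2, too few to be tested. Both genes hold the same 3p arm, shown because it is 1 sequence from 2 places.
miR-365-3p: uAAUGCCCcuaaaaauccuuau

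Reads with several places in the genome were counted apart from genes, so these counts give no level of miR-365 in the tissue and no comparison with Mir193a.

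Mir21b and Mir21c, 2 further annotated genes of the miR-21 name, had 0 reads in both libraries. A count of 0 was set to a floor of 3 reads, or 1.02 CPM in replicate 1 and 0.823 CPM in replicate 2. Mir21a, at 1040.2 and 872 CPM, was 1015-fold above this floor in replicate 1 and 1059-fold above it in replicate 2. The exact interval of a count of 0 reaches higher than the floor, to 1.26 CPM in replicate 1 and 1.01 CPM in replicate 2. Against these bounds the folds would be smaller, so those given are not lower limits. Their RefSeq arms, set beside that of Mir21a, show how the 3 genes differ.
miR-21a-5p: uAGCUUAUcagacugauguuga
miR-21b: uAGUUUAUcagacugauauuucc
miR-21c: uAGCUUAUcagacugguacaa

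Against miR-21a-5p, whose base is given first, miR-21b differs by C4U, G18A, G21U and A22C over 22 bases, and miR-21c by A16G, G18A, U19C, U20A and G21A over 21 bases. The C4U difference lies in the seed, and those of miR-21c all lie outside it.

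Other miRNAs associated with astrocytes were called in both directions. Of 10 such genes, all detected, 4 were called higher in replicate 1 and 4 in replicate 2. Their median log2 ratio was -0.02, against 1.01 for Mir22, Mir21a, Mir31 and Mir193a and -0.04 over all tested genes. The genes called higher in replicate 1 were those of the mir-29 family, which targets collagens and other matrix genes: Mir29a at 9631 CPM in replicate 1 and 8396 CPM in replicate 2 (1.15-fold), Mir29b-1 (1.73-fold), Mir29b-2 (2.31-fold) and Mir29c (3.005-fold). Mir29b-1 and Mir29b-2 each have an arm that also lies in another hairpin and are uncertain as single genes. The genes called higher in replicate 2 were Mir23b (1.03-fold), Mir23a (1.03-fold), Mir27b (1.09-fold) and Mir27a (2.06-fold). Their clusters also hold the mir-24 genes, which were not called. The mir-24 genes have an arm that also lies in another hairpin and are uncertain as single genes. Mir23b had 20434 CPM in replicate 1 and 21106 CPM in replicate 2, and Mir23a had 8014 CPM in replicate 1 and 8278 CPM in replicate 2. Under TMM scaling 2 genes of the list were called higher in replicate 2, and 1 was when the most abundant gene was taken out of the totals.

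Among oligodendrocyte miRNAs, Mir219a-2 and Mir338 were called higher in replicate 1, as the 4 genes were. Mir219a-2 had 3229 CPM in replicate 1 and 1127 CPM in replicate 2, Mir338 had 2112 CPM in replicate 1 and 1400 CPM in replicate 2, and Mir219a-1 had 10.9 CPM in replicate 1 and 9.88 CPM in replicate 2, which was not called. Mir219a-1 and Mir219a-2 share a mature arm and are uncertain as single genes. Mir219b had 0 sense reads, but 9454 antisense reads in replicate 1 and 4107 in replicate 2, the same numbers as the sense reads of Mir219a-2. Among 6 tested genes of microglia and leukocytes, Mir146 was called higher in replicate 1 (674 CPM in replicate 1, 545 CPM in replicate 2), while Mir150 (814 and 1230 CPM) and Mir223 (1 and 23 reads) were called higher in replicate 2. Mir142, of the same list, was at 57.4 CPM in replicate 1 and 64.8 CPM in replicate 2 and was not called.

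Markers of cells outside the glia also moved. The 3 red blood cell genes were all called higher in replicate 1, with a summed level of 1176 CPM in replicate 1 and 339.7 CPM in replicate 2. Mir451a had 1039 CPM in replicate 1 and 270.02 CPM in replicate 2 (3.85-fold), Mir144 was 2.00-fold and Mir486 1.84-fold higher in replicate 1. Endothelial Mir126a was at 14516 CPM in replicate 1 and 8969 CPM in replicate 2 (1.62-fold). Mir126b, the other gene of that list, had 0 sense reads. It had 42504 antisense reads in replicate 1 and 32682 in replicate 2, nearly the sense counts of Mir126a (42505 and 32684), so its 0 is no separate measure. Mir204, high in choroid plexus, went the other way, with 593 CPM in replicate 1 and 2101 CPM in replicate 2. Of 11 tested neuron genes 3 were called toward replicate 1 and 6 toward replicate 2. The list summed to 37510 CPM in replicate 1 and 42592 CPM in replicate 2, without reads that have several places. These sums differ by less than Mir128-1 alone does between the libraries. Mir132 (12153 and 10636 CPM), Mir138-1 (6059 and 3502 CPM) and Mir138-2 (4030 and 2291 CPM) were called higher in replicate 1. Mir137 (9112 and 12631 CPM) and Mir128-1 (4326 and 10622 CPM) were called higher in replicate 2. Mir128-1, Mir138-1 and Mir138-2 each have an arm that also lies in another hairpin and are uncertain as single genes. What part these cell types have in the ratios of the 4 genes was not tested.

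**Figure D3:**
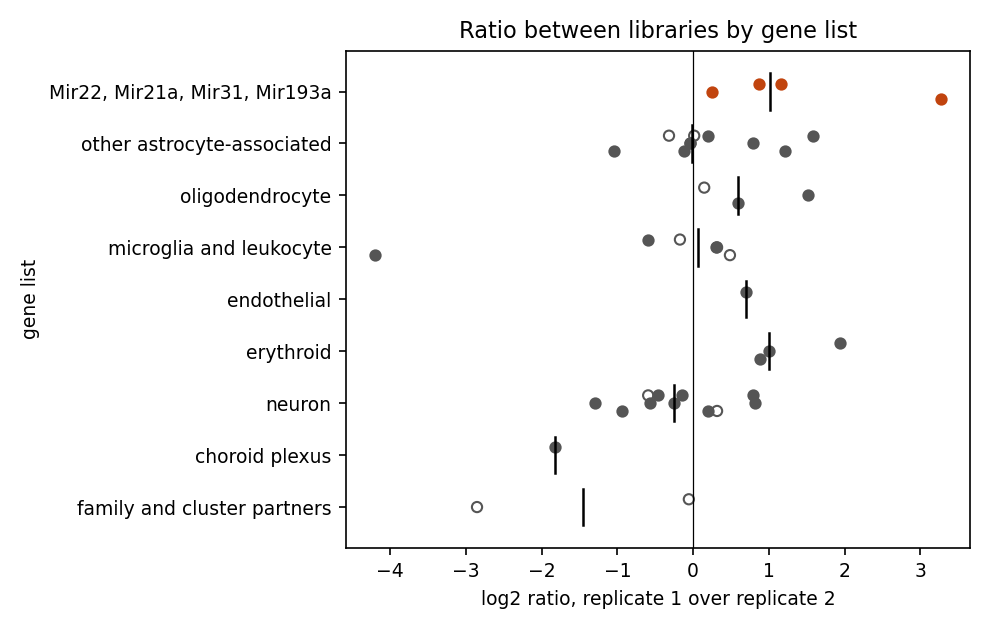
Log2 ratio of replicate 1 over replicate 2 for each tested gene of each list, filled where called and open where not, with a black line at the list's median. Mir22, Mir21a, Mir31 and Mir193a (orange) all lie right of 0, as do the oligodendrocyte and erythroid genes, while the other astrocyte-associated genes lie on both sides.

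The genes most like each of the 4 were found among the 295 genes averaging 50 or more reads, by straight-line distance in mean log2(CPM + 1) and log2 ratio over the 2 libraries. Nearest to Mir21a were Mir154 (1056 CPM in replicate 1 and 904 CPM in replicate 2), Mir140 (1027 and 837 CPM) and Mirlet7c-1 (1013 and 919 CPM), at distances of 0.05 to 0.11. Mirlet7c-1 has an arm that lies in another hairpin too. Nearest to Mir22 were Mir138-2, Mir320 and Mir138-1, at distances of 0.24 to 0.37. The 2 Mir138 genes are on the neuron list, and were 1.76-fold (Mir138-2) and 1.73-fold (Mir138-1) higher in replicate 1. They share a mature arm, and so are uncertain as single genes. Nearest to Mir193a were Mir32 (36.2 CPM in replicate 1 and 17.3 CPM in replicate 2), Mir10b and Mir3547. Mir31 had no close match: its nearest gene was Mir451a at a distance of 1.68, followed by Mir34a at 2.19 and Mir15a at 2.38.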

How the data were processed

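The deposited tables hold raw counts of whole reads per miRNA gene in 3 unnamed columns per library, made by the authors on mm10 with GENCODE M21, per the notes deposited beside them. No aligner or counter is given in the sources used here. From their totals the columns were read as unstranded, sense and antisense, and sense counts were used. The 4 rows that name no gene took 69.5% (replicate 1) and 65.3% (replicate 2) of the reads and stayed out of totals and tests. The depth of each library makes 10 reads equal to 3.42 CPM (replicate 1) or 2.74 CPM (replicate 2).

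All 2202 identifiers matched GENCODE M21. The 4 genes are those whose symbol fits the name pattern for Mir21a, Mir22, Mir31 and Mir193a. Members and lists were chosen with earlier results of these data known. Named besides them are all family and cluster partners, the 3 most abundant genes of each other list, and the 3 genes nearest in pattern. The remaining mir-29 genes, Mir27a, Mir27b, Mir219b and Mir223 were named after their values were seen.

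With 1 group of 2 libraries no condition could be tested. A chi-square over 474 genes was 390 times its degrees of freedom, so the libraries are not 1 library deposited as 2. Ratios were tested as described in the text (adjusted p threshold 0.05). The test was checked on simulated counts with counting noise only, so that check does not cover the wider spread between these libraries. Python 3.11.15, scipy 1.17.1, pandas 2.3.3, numpy 2.4.6, matplotlib 3.10.9, R 4.3.3, edgeR 4.0.16 and DESeq2 1.42.0 (size factors only) were used.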

Additional observations from a re-analysis of the deposited data

How the results depend on the processing

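Mir22, Mir21a, Mir31 and Mir193a kept their direction, higher in replicate 1, with counts without strand, TMM, DESeq2 size factors, the other totals tried and pseudocounts of 1 and 0.1 CPM. The log2 ratio ranged from 3.09 to 3.35 for Mir31, 0.97 to 1.23 for Mir193a, 0.68 to 0.94 for Mir22 and 0.07 to 0.32 for Mir21a. With all reads of the count table as the total, which shifts the median log2 ratio by -0.19, Mir21a lost its call (log2 ratio 0.067, adjusted p = 0.11 by the exact binomial test), levels were 1197 CPM for Mir22, 310.2 CPM for Mir21a, 136.6 CPM for Mir31 and 8.89 CPM for Mir193a, and 73 genes were called higher in replicate 1 and 194 in replicate 2, against 125 and 150. With a mean count of at least 100, Mir193a was not tested and 3 of the 4 genes were called. Of all 258 genes tested at that depth 214 were called, 100 of them higher in replicate 1. Under TMM 2, and without the most abundant gene 1, of the other astrocyte-associated genes were called higher in replicate 2. Counted without strand, 0 oligodendrocyte, 0 endothelial and 1 erythroid genes were called higher in replicate 1, because Mir219a-2, Mir338, Mir451a and Mir486 then had 0 reads in both libraries and Mir126a had 1 in replicate 1 and 2 in replicate 2. With a mean count of at least 100, 1 microglia and leukocyte gene was called higher in replicate 2. The level of Mir31 was 82.6 CPM without replicate 1 and 801 CPM without replicate 2. Leaving out genes with an arm in another annotated hairpin was added after the data were seen. The planned search of the genome for further places of each arm was not run, as no genome sequence was used here. No paired analysis was possible because there is 1 group.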

Other observations

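The 8 largest ratios toward replicate 1 among the 295 genes averaging 50 or more reads were those of Mir31, Mir107 (5.18-fold), Mir298 (4.03-fold), erythroid Mir451a (3.85-fold), Mir103-2 (3.76-fold), Mir29c (3.005-fold), Mir219a-2 (2.86-fold) and Mir34a (2.49-fold). They were listed after their values were seen, and no cause was tested.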
